A study of Mus musculus with 26 samples.

Results

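ATAC-seq, in which a transposase cuts and tags open DNA, was used to map accessible chromatin in Kupffer cells, which are macrophages resident in the liver. Of the 96238 nuclear peaks in the table of the inbred strains, 6303 on chromosomes 1 to 19 were annotated to an exon (2268), a transcription termination site (TTS, called a gene end here, 1596), a 3' untranslated region (3' UTR, 1099), a 5' UTR (894) or a non-coding transcript (446), and these are described here as genic peaks, intron peaks not being among them. The rule also leaves out peaks named as a CpG island or as an LTR, LINE or SINE repeat, but none of the 6303 was lost to it. The animals were male mice of the inbred strains C57BL/6J, BALB/cJ and A/J and of CB6F1/J, in which BALB/cJ is crossed with C57BL/6J, and all were fasted overnight. Control libraries came from mice without an injection, 4 of each strain and 4 of the hybrid. Libraries labelled LPS came from mice given 0.1 mg/kg of lipopolysaccharide into the peritoneum 2 h earlier, 3 of C57BL/6J, 2 of BALB/cJ and 5 of CB6F1/J. Live cells positive for CD45, high for F4/80, intermediate for CD11b and negative for the endothelial marker CD146 were sorted, and an inhibitor of transcription was present while the liver was digested.

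Open chromatin is best known at promoters and at enhancers in introns and between genes, but enhancers, CTCF sites and alternative starts also lie within exons and untranslated regions and just past the ends of genes. In macrophages the lineage factor PU.1 holds enhancers open, often with partners of the AP-1 family. LPS, a component of the outer membrane of Gram-negative bacteria, is sensed by TLR4 and activates NF-kB, AP-1 and, through induced interferon, the factors of interferon-stimulated genes.

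The peaks on which the results turn are shown by the 30 bases around a motif. Capitals mark an AP-1 site (TGANTCA) in the peaks that opened after LPS or differed between strains, and a PU.1 site (GAGGAAGT) in the Gpr4 gene end. The letters are those of mm10, the genome of C57BL/6J, on the + strand, and the alleles of the other strains were not read. Opened by LPS means higher in LPS than in control libraries, which also differ in library date.
Trim30a 3' UTR (chr7:104410711-104410740), opened by LPS: cattgttcaccaTGAGTCAttcttttgact
Rsad2 gene end (chr12:26442055-26442084), opened by LPS: gtcccttcttgcTGACTCActgaatacatg
Fam3b exon 6, nearest start Mx1 (chr16:97475741-97475770), opened by LPS: cttccatcatcaTGAGTCAccatgaacagc
Cd180 exon 3 (chr13:102706015-102706044), opened by LPS: atcatgtagaccTGAGTCAcaacaggctga
Il2ra 3' UTR (chr2:11691349-11691378), opened by LPS: tctcagatgagtTGAGTCAgattctcatgt
Scd1 gene end (chr19:44394171-44394200), opened by LPS: gttactggggtaTGACTCAgcccttgtcat
Col11a2 exon 36 (chr17:34057493-34057522), open in C57BL/6J and A/J: cttggatcttgcTGAGTCAgccgccttggt
Ank2 exon 37 (chr3:126944977-126945006), open in C57BL/6J: gctgactgctaaTGATTCAtcagccattgg
Arf2 3' UTR (chr11:103984260-103984289), open in BALB/cJ and C57BL/6J: gttagctcagacTGACTCAtttaggtggtt
Gpr4 gene end (chr7:19225215-19225244), open in BALB/cJ and A/J: aataggagggaGAGGAAGTgcctggctctg

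Letters were searched on both strands of the 200-bp peaks, and a match is a description of the sequence only. An AP-1 site was present in 8.66% of the genic peaks against 14.3% of all nuclear peaks. A PU.1 site was present in 6.77% against 8.58%, a kB site (GGNNTTTCC) in 3.84% against 5.28%, and an interferon-stimulated element (GAAANNGAA) in 7.04% against 8.85%. The letters TGCTGA, part of the site of MAF factors, can share bases with an AP-1 site, as at Rsad2 and Col11a2, and were present in 17.5% against 18.5%. The core of CTCF, the factor that anchors chromatin loops, was present in 3.38% against 2.74%, and in 5.83% of the gene ends and 4.37% of the 3' UTR peaks. AP-1 sites were found in 12.1% of gene ends and 10.6% of 3' UTR peaks, but in 6.66% of exon and 4.81% of 5' UTR peaks.

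The classes fell into a part near the start of the gene and a part far from it. The median distance to the nearest start was 237 bp for 5' UTR peaks and 9882 bp for 3' UTR peaks, and 3080 bp over the genic peaks against 10831.5 bp over all peaks. Of the 6303, 2070 (32.8%) lay within 1 kb of a start and 1759 (27.9%) over 10 kb from the nearest. Median GC content was 66.5% in 5' UTR and 59.5% in exon peaks, 50.5% at gene ends and 49.5% in 3' UTRs. Of the exon peaks 782 lay in a first exon of its gene and 378 in a last exon, and the former had a median GC content of 68.0%. Coding bases were overlapped by 2851 of the peaks, and 882 lay wholly in coding sequence. The gene whose start was nearest was the gene that held the peak in 4258 of 6300 peaks with both names, and a peak is named below by the gene that holds it.

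Coverage and annotation limit what a value at these peaks can mean. Tags were counted in 1000-bp windows on 200-bp peaks, so that 3132 of the peaks (49.7%) shared part of their window with another peak, and 1155 (18.3%) with a promoter peak. Of the genic peaks, 2310 (36.6%) were in all 5 reproducible peak lists of the inbred groups, against 39.8% of all peaks and 69.8% of promoter peaks outside CpG islands. The 16 inbred libraries apart from BALB/cJ control replicate 4 held 2.08 to 7.54 M tags in peaks, and that library held 47.2 M. The 9 hybrid libraries held 11.5 to 25.0 M perfectly mapped tags in peaks. Control libraries share a library date and the LPS libraries carry others, so LPS and date cannot be told apart, and under LPS the dates also divide C57BL/6J from BALB/cJ. The inbred control libraries also hold expected counts, rounded up here, and the inbred LPS libraries whole counts. LPS and the kind of count thus cannot be told apart in the inbred strains. C57BL/6J LPS replicate 1 lay nearer the C57BL/6J controls than replicates 2 and 3 did, with correlations of 0.739 to 0.802 over the genic peaks against 0.615 to 0.725. Promoter peaks of 7 of 7 Kupffer cell markers were above 0, and their summed level was 141 to 174 CPM (tags scaled to the total in peaks) in control and 89.3 to 132 in LPS libraries. The monocyte genes Ly6c2, Ccr2 and F13a1, the neutrophil genes S100a9, Ly6g and Cxcr2 and the 5 hepatocyte markers had no promoter peak in the table, so their promoters have no value here. Promoters of the other 2 of 5 neutrophil markers summed to 20.8 to 41.5 CPM over the inbred libraries. The 1 of 5 endothelial markers with a promoter peak had 5.43 to 11.3 CPM in BALB/cJ control, 2.86 to 4.28 in A/J, 0.582 to 2.89 in C57BL/6J control and 1.05 to 2.85 in LPS libraries, and the part of such cells in the strain differences was not tested. In bulk cells, fewer cells of a type and less open chromatin per cell cannot be told apart.

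Levels at the genic peaks were modest. The median of the mean normalised count (tags scaled for library size) was 17.8, against 16.9 for intron and 65.1 for promoter peaks, and 5' UTR peaks were the highest class at 30.7. The highest levels were at Rn45s, the transcript of a ribosomal RNA precursor, with 1671, 2812, 1380 and 1573 normalised counts in A/J. They were 568, 588, 587 and 371 in BALB/cJ control and 448, 515, 459 and 979 in C57BL/6J control. Every A/J library was above every BALB/cJ and C57BL/6J library. A/J exceeded BALB/cJ by 1.83 ± 0.23 on the log2 scale (approximate SE, edgeR quasi-likelihood test with Benjamini-Hochberg adjustment, adjusted p = 5.82e-07). Here and below, the SE of a log2 ratio is its size divided by the square root of the F statistic of the test. Ribosomal RNA genes exist in many copies, which the reference does not hold in full. The peak in the Lars2 3' UTR, with 59.9% repeated sequence, was likewise highest in A/J, at 952 ± 217 counts (SD, n = 4) against 200.3 ± 122 in BALB/cJ and 244 ± 158 in C57BL/6J. Among unrepeated peaks, high levels were found in the 5' UTR of Pnrc1, a nuclear receptor coactivator (mean over 17 inbred libraries, 541), and in exon 1 of Cd83, a surface protein of activated antigen-presenting cells (348). A promoter peak shares part of the Pnrc1 counting window.

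The share of a library's tags that lay in the genic peaks fell after LPS. It was 5.36% in C57BL/6J control and 4.66% in C57BL/6J LPS, and 5.29% in BALB/cJ control and 4.61% in BALB/cJ LPS. LPS libraries ranged from 4.52 to 4.88% and control libraries of the 3 strains from 5.07 to 5.81%, with no overlap. An exact two-sided permutation test of the LPS labels within strains (525 labelings, smallest possible p = 0.0019) gave p = 0.0019 (adjusted over 6 shares 0.0029). The share in exon peaks fell by 0.365 percentage points in C57BL/6J. In BALB/cJ it fell by 0.348 points. In 5' UTR peaks it fell by 0.330 points in the former strain and by 0.341 points in the latter, each with the same exact p = 0.0019. The share in 3' UTR peaks moved the other way, from 0.728 to 0.773% in C57BL/6J and from 0.771 to 0.826% in BALB/cJ (exact p = 0.0038, adjusted 0.0046). Summed over the peaks that shared no window with another, a choice made after seeing the data, the share went from 2.24 to 2.07% in C57BL/6J and from 2.32 to 2.12% in BALB/cJ (exact p = 0.0019), falls of 0.167 and 0.201 points where all genic peaks fell by 0.694 and 0.681. Gene ends gained 0.0260 and 0.0194 points, which did not pass the test (exact p = 0.084). Shares are relative to all peaks of a library, and promoter peaks as a whole held 34.6 to 40.2% of tags in control and 28.0 to 33.9% in LPS libraries.

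More of the genic peaks fell than rose after LPS in the inbred strains. In C57BL/6J, 376 of the 6013 tested rose (6.25%) against 12.3% of all tested peaks, and 963 fell (16%) against 8.07%. In BALB/cJ, 536 of 6070 rose (8.83%) against 16.2%, and 1106 fell (18.2%) against 11.3%. A change was called at an adjusted p under 0.05 and a log2 ratio over 1 in size. The median log2 ratio was -0.32 in C57BL/6J against -0.03 over all tested peaks, and -0.36 against -0.07 in BALB/cJ. With DESeq2 or with scaling by total tags in peaks the medians were -0.22 and -0.21 in C57BL/6J, while BALB/cJ had -0.28 and -0.23. Among peaks that shared no window with another, 217 of 2970 rose and 398 fell in C57BL/6J, and 305 of 3019 rose and 488 fell in BALB/cJ. Without C57BL/6J LPS replicate 3, 215 rose and 597 fell, and without BALB/cJ LPS replicate 2, 349 rose and 637 fell. The kind of count, expected in control and whole in LPS libraries, was not tested for its part in these falls or in the tag shares.

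In the hybrid, rises and falls were near equal in number. In CB6F1/J, 635 of 4535 tested peaks rose (14.0%) against 14.3% of all tested hybrid peaks, and 634 fell (14.0%) against 10.5%. With scaling by total tags the counts were 524 and 795, and with all tags on mm10 in place of perfectly mapped tags they were 714 and 357. These 4535 lie within the 4542 peaks that had a counterpart in the separately made hybrid table, and the strains' peaks without a counterpart were not tested there. The strains shared calls: of 5844 genic peaks tested in both, 349 rose in C57BL/6J and 518 in BALB/cJ, with 262 in common (75.1 and 50.6%). Of the 946 and 1077 that fell, 625 were common (66.1 and 58.0%). The same overlap was not computed over all peaks, so it cannot be read as particular to the genic peaks.

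**Figure D1:**
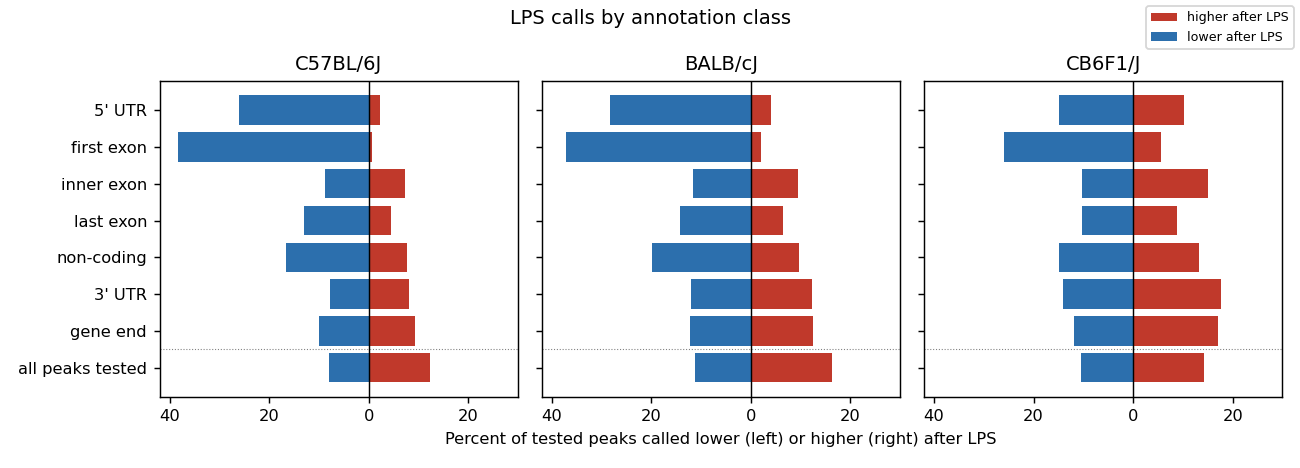
Percent of tested peaks called lower (bars to the left) and higher (bars to the right) after LPS in each annotation class, in C57BL/6J, BALB/cJ and CB6F1/J, with all tested peaks in the bottom row. Among first exon peaks 38.4% were lower in C57BL/6J and 37.3% in BALB/cJ, while at gene ends the higher and lower shares lay close together, at 9.36 and 10.1% in C57BL/6J.

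The balance of rises and falls varied with the class of the peak. In C57BL/6J, 0.66% of first exon peaks rose and 38.4% fell, and in BALB/cJ 2.09% rose and 37.3% fell. For 5' UTR peaks the shares were 2.29% higher and 26.1% lower in C57BL/6J, while BALB/cJ had 4.09 and 28.4%. In 3' UTRs they were 8.10% higher and 7.81% lower in C57BL/6J (BALB/cJ, 12.2 and 11.9%), and at gene ends 9.36 and 10.1% (BALB/cJ, 12.5 and 12.2%). Inner exons, with 7.24% higher and 8.88% lower in C57BL/6J, lay closer to these classes than to the first exons. In CB6F1/J first exons again had the lowest share of rises, with 5.65% higher and 25.9% lower. These hybrid shares rest on perfectly mapped tags, with which 634 genic peaks fell, against 357 with all tags on mm10.

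Distance from the start moved with the class. Within 500 bp of a start, 1.61% of genic peaks rose and 35.5% fell in C57BL/6J (BALB/cJ, 3.26 and 35.8%). Over 30 kb from any start, 12.3% rose and 6.32% fell in C57BL/6J (BALB/cJ, 14.0 and 11.2%). Peaks that fell had a median distance of 459 bp in C57BL/6J and 582.5 bp in BALB/cJ, and peaks that rose 9594 and 6060 bp.

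**Figure D2:**
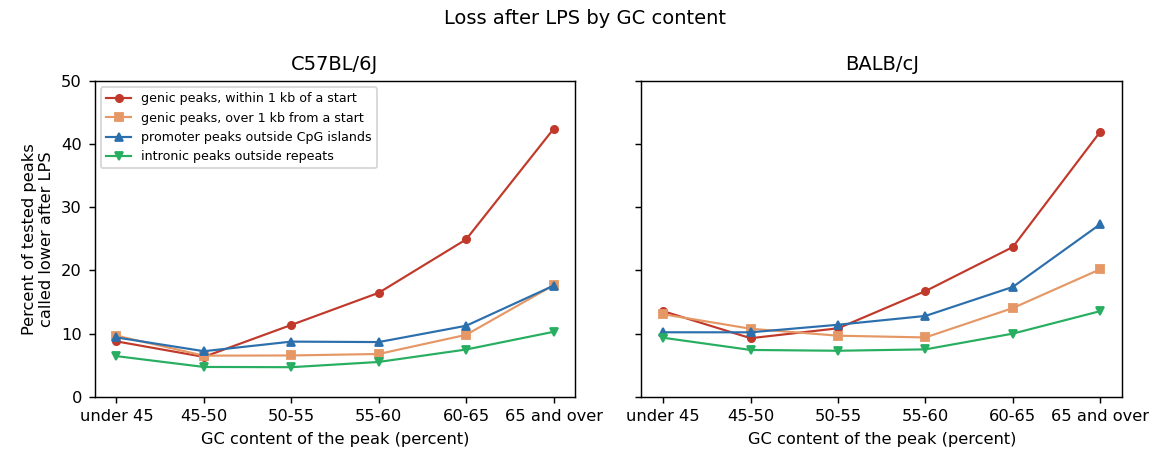
Percent of tested peaks called lower after LPS (y axis) in strata of GC content of the 200-bp peak (x axis), for genic peaks within and over 1 kb from a start, promoter and intron peaks, in C57BL/6J and BALB/cJ. At 65% GC or more, 42.4% of genic peaks near a start were lower in C57BL/6J and 42.0% in BALB/cJ, against 17.6 and 27.3% of promoter peaks.

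GC content also moved with the response. Of the peaks with at least 65% GC, 37.2% fell in C57BL/6J and 37.5% in BALB/cJ, whereas 22.7 and 29% of all peaks of that content did so. Within this stratum the peaks up to 1 kb from a start fell in 42.4% of cases in C57BL/6J and 42.0% in BALB/cJ, while those farther out did so in 17.7 and 20.2%. Below 45% GC, 12.5% rose and 9.61% fell in C57BL/6J (BALB/cJ, 15.0 and 13.1%). The part of sequence content in library making was not tested.

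Peaks that opened carried AP-1 sites more often than the others. An AP-1 site was present in 41.8% of the peaks that rose in C57BL/6J, 37.1% in BALB/cJ and 31.8% in CB6F1/J, and in 0.83, 1.36 and 2.05% of those that fell. Of the 521 tested peaks with the site in C57BL/6J, 157 rose and 8 fell, beside 40.3% higher and 1.53% lower for all peaks with the site. In BALB/cJ 199 of 517 rose and 15 fell, beside 50.1 and 2.40%, and in CB6F1/J 202 of 444 rose and 13 fell. For CB6F1/J the shares of all hybrid peaks with the site were not computed.

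Interferon-response genes supplied peaks with large rises. Peaks were assigned to the interferon list, and to the lists below, by the gene whose start was nearest. Of those tested, 11 of 37 rose and 2 fell in C57BL/6J (median log2 ratio 0.45). In BALB/cJ 13 of 39 rose and 6 fell (0.66), and in CB6F1/J 14 of 30 rose and 3 fell (0.61). The list's rises came to 29.7, 33.3 and 46.7% of its tested peaks, beside 6.25, 8.83 and 14.0% of all genic peaks and medians of -0.32, -0.36 and -0.06. They included peaks nearest to Trim30a, Mx1, Rsad2, Gbp3, Parp14, Ifit3, Irf7 and Ifih1.

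The peak in the last exon of Trim30a, a TRIM protein induced in activated macrophages, lay at chr7:104410622-104410822. It had 0.58, 1.6, 1.3 and 2.66 normalised counts in C57BL/6J control and 7.02, 81.5 and 131 in C57BL/6J LPS, and 1.32, 0.975, 2.68 and 1.84 in BALB/cJ control and 74 and 106 in BALB/cJ LPS. The groups did not overlap in either strain, and C57BL/6J LPS replicate 1 was the lowest of the LPS libraries. Peaks named for the largest ratios were taken only where the compared groups did not overlap. The lack of overlap at such peaks, here and below, is thus a condition of the choice and not a separate result. The log2 ratio was 5.73 ± 0.67 in C57BL/6J (edgeR adjusted p = 2.15e-07) and 5.62 ± 0.62 in BALB/cJ (3.92e-08).

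Rsad2 encodes viperin, an antiviral enzyme. The peak at its end (chr12:26441916-26442116) had 1.16, 1.6, 1.3 and 1.33 counts in C57BL/6J control and 5.62, 29.7 and 61.3 after LPS, and 3.96, 2.93, 0 and 3.59 in BALB/cJ control and 145 and 170 after LPS. In CB6F1/J it had 5.65, 15.4, 11.5 and 6.75 in control and 287, 216, 261, 267 and 222 after LPS. No control library reached the lowest LPS library of its strain, and the log2 ratios were 4.61 ± 0.66, 5.64 ± 0.53 and 4.71 ± 0.30 (edgeR adjusted p = 4.99e-06, 5.13e-09 and 1.62e-12).

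Exon 6 of Fam3b held a peak (chr16:97475660-97475860) whose nearest start is that of Mx1, a dynamin-like antiviral GTPase. It had 2.32, 8.02, 3.9 and 1.33 counts in C57BL/6J control and 18.3, 76.4 and 55.8 after LPS, a log2 ratio of 3.83 ± 0.56 (edgeR adjusted p = 6.28e-06). The BALB/cJ controls held 2 tags in all (1.32, 0, 1.34 and 0 counts) against 34.8 and 42.2 counts after LPS, a ratio of summed tags of 258 with a 95% counting interval of 69.2 to 2161. That ratio rests on the depth of BALB/cJ control replicate 4, and without this library it was 48.7 (13.1 to 408). In CB6F1/J the counts were 20.7, 8.38, 1.28 and 14.6 in control and 303, 337, 248, 312 and 432 after LPS, and every LPS library was above every control library in each of these 3 comparisons. The end of Gbp7, nearest to Gbp3 and so within a cluster of guanylate-binding proteins, rose by a log2 ratio of 3.48 ± 0.71 in C57BL/6J (edgeR adjusted p = 4.20e-04), 3.06 ± 0.71 in BALB/cJ (0.00109) and 3.66 ± 0.30 in CB6F1/J (1.69e-10).

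**Figure D3:**
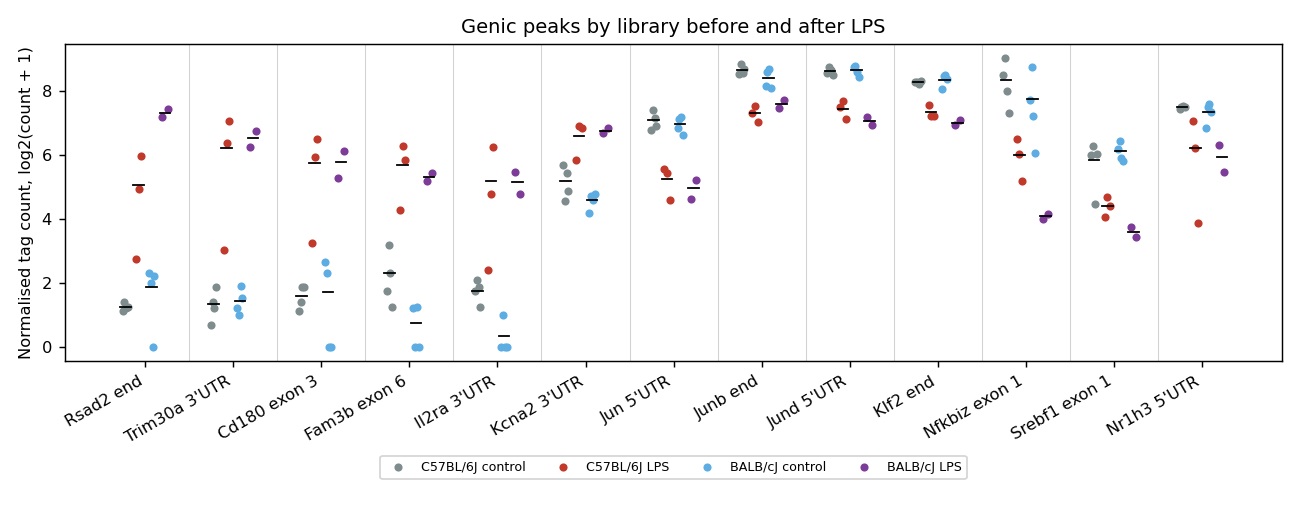
Normalised counts (log2 of the count plus 1) of named genic peaks in each control and LPS library of the inbred strains, with black bars at the log2 of the group mean plus 1. At Trim30a, Rsad2, Fam3b and Cd180 the LPS libraries lie above the controls of their strain, and at Jun and Nfkbiz below them.

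Receptor genes of macrophages also held peaks that opened. The last exon of Cd180, a relative of the Toll-like receptors that binds MD-1, held a peak (chr13:102705968-102706168) with 1.16, 1.6, 2.6 and 2.66 counts in C57BL/6J control and 8.43, 59.4 and 89.2 after LPS. In BALB/cJ it had 5.27, 3.9, 0 and 0 in control and 37.5 and 68.6 after LPS. These BALB/cJ controls held 4, 4, 0 and 0 tags, with 0 in replicate 4, the deepest library, so the ratio rests on few control tags. No control library reached an LPS library, and the log2 ratios were 4.79 ± 0.78 and 5.58 ± 0.85 (edgeR adjusted p = 2.58e-05 and 6.16e-06), with 6.05 ± 0.44 in CB6F1/J (1.66e-11).

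The 3' UTR of Il2ra, the interleukin-2 receptor alpha chain, held a peak (chr2:11691207-11691407) nearest to the start of Il15ra. It had 2.32, 3.21, 2.6 and 1.33 counts in C57BL/6J control and 4.21, 26.3 and 74.9 after LPS, a log2 ratio of 3.91 ± 0.69 (edgeR adjusted p = 7.73e-05). BALB/cJ controls held 1 tag in all against 42.7 and 26.4 counts after LPS, a ratio of summed tags of 463 with a 95% counting interval of 80.7 to 18501. Without BALB/cJ control replicate 4, the deepest library, it was 87.4 (15.2 to 3497). In CB6F1/J the ratio was 4.25 ± 0.36 on the log2 scale (3.44e-10), so the peak was higher after LPS in all 3 comparisons.

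Of the list of cytokines, chemokines and mediators, 2 of 29 rose in C57BL/6J (median log2 ratio -0.02), 4 of 29 rose and 4 fell in BALB/cJ (-0.23), and 4 of 21 rose and 2 fell in CB6F1/J (0.07). The falls in C57BL/6J were 0 by edgeR and by DESeq2, with 1 at an unadjusted p under 0.05. The list's shares of rises (6.90, 13.8 and 19.05%) lay beside 6.25, 8.83 and 14.0% of all genic peaks, and its shares of falls (0, 13.8 and 9.52%) beside 16, 18.2 and 14.0%, so its rises in C57BL/6J were near the background. The end of Ccl4, a chemokine that draws monocytes and T cells, rose by 2.62 ± 0.61 in C57BL/6J (edgeR adjusted p = 0.00156) and 2.54 ± 0.43 in CB6F1/J (3.12e-05), and by 2.25 ± 0.63 in BALB/cJ (0.00567, but 1.87 and 0.104 without BALB/cJ LPS replicate 2). The 5' UTR of Il18, the precursor of an inflammasome cytokine, rose by 1.46 ± 0.15 in CB6F1/J (7.22e-09).

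On the list of AP-1, ATF, EGR, KLF, MAF and C/EBP factors, 30 of 75 tested peaks fell and 2 rose in C57BL/6J (median log2 ratio -1.08), 26 of 75 fell and 2 rose in BALB/cJ, and 20 of 50 fell and 3 rose in CB6F1/J (median -0.85). These falls were 40, 34.7 and 40% of the list's tested peaks, beside 16, 18.2 and 14.0% of all genic peaks, among which falls also outnumbered rises in both inbred strains. The peaks that rose were nearest to Klf10, Cebpd and Klf6. Those that fell included peaks nearest to Jun, Jund, Junb, Fos, Fosb, Egr1, Ier2, Ier5, Klf2, Klf9, Maff and Atf4.

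The 5' UTR of Jun (chr4:95051521-95051721), a subunit of AP-1, had 108, 167, 142 and 117 counts in C57BL/6J control and 46.3, 41.6 and 23.1 after LPS, and 112, 137, 144 and 96.3 in BALB/cJ control and 23.5 and 36.1 after LPS. Every LPS library was below every control library of its strain. The log2 ratios were -1.86 ± 0.27 in C57BL/6J (edgeR adjusted p = 5.84e-06), -2.02 ± 0.32 in BALB/cJ (9.61e-06) and -1.21 ± 0.20 in CB6F1/J (1.71e-05). A promoter peak of the gene shares the counting window, so the value is that of the first kilobase of Jun rather than of its 5' UTR alone.

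The end of Junb, another AP-1 subunit, held a peak with no promoter peak in its window and 369, 459, 375 and 408 counts in C57BL/6J control. It had 157, 181 and 128 after LPS, a log2 ratio of -1.37 ± 0.17 (edgeR adjusted p = 4.75e-07), and a ratio of -0.81 ± 0.19 in BALB/cJ, short of the size required for a call (0.00109). The groups did not overlap in either strain. In exon 1 of Ier5, an immediate-early gene without introns, the ratio was -2.14 ± 0.45 in C57BL/6J (5.94e-04), -2.39 ± 0.57 in BALB/cJ (0.00128) and -1.45 ± 0.19 in CB6F1/J (5.79e-07). Unlike at Junb, a promoter peak shares part of the counting window of this Ier5 peak. The end of Klf2, a factor that restrains inflammatory genes, fell by 1.35 ± 0.18 in BALB/cJ (5.37e-07) and had a ratio of -0.94 ± 0.15 in C57BL/6J (1.99e-05).

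Of the list of TLR4, NF-kB and feedback genes, 2 of 52 peaks rose in C57BL/6J and 4 fell (median -0.55), in BALB/cJ 4 of 50 rose and 13 fell (-0.70), and in CB6F1/J 2 of 32 rose and 4 fell (-0.35). Falls were 7.69, 26 and 12.5% of the list, against 16, 18.2 and 14.0% of all genic peaks, so they were below the background in C57BL/6J and near it in CB6F1/J. Exon 1 of Nfkbiz, the atypical inhibitor IkB-zeta, had 357, 515, 255 and 157 counts in C57BL/6J control and 88.5, 63.7 and 35 after LPS, and 210, 430, 148 and 65.8 in BALB/cJ control and 14.8 and 16.7 after LPS. The groups did not overlap, and the log2 ratios were -2.40 ± 0.46 and -3.72 ± 0.63 (edgeR adjusted p = 1.97e-04 and 2.71e-05). Its window also holds a promoter peak. Among the peaks that rose was the end of Rel, which encodes the NF-kB subunit c-Rel, by 4.04 ± 0.86 in BALB/cJ (4.07e-04) and 2.70 ± 0.57 in CB6F1/J (5.84e-04). In C57BL/6J its ratio was 2.52 ± 0.85 (0.0251), a call that was lost when any of 4 libraries was left out (1.91 and 0.191 without LPS replicate 3, 2.40 and 0.0778 without LPS replicate 2, 1.91 and 0.103 without control replicate 1, and 2.45 and 0.0553 without control replicate 2).

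Of the Kupffer cell identity list, 5 of 46 rose and 9 fell in C57BL/6J (median -0.72), 5 of 48 rose and 9 fell in BALB/cJ (-0.64), and 6 of 35 rose and 9 fell in CB6F1/J (-0.22). Its shares of falls in the inbred strains (19.6 and 18.8%) were near the 16 and 18.2% of all genic peaks and its rises (10.9 and 10.4%) a little over 6.25 and 8.83%, while CB6F1/J had 17.1% higher and 25.7% lower against 14.0 and 14.0%. The 3' UTR of Kcna2, a potassium channel gene, had 49.9, 22.5, 41.6 and 27.9 counts in C57BL/6J control and 56.2, 117 and 113 after LPS, and 17.1, 25.4, 22.8 and 26.4 in BALB/cJ control and 101 and 113 after LPS. The groups did not overlap, and the ratios were 1.40 ± 0.30 (edgeR adjusted p = 6.12e-04), 2.18 ± 0.32 (4.19e-06) and, in CB6F1/J, 2.35 ± 0.30 (5.67e-07). The end of Marco, a scavenger receptor for bacteria, rose by 3.11 ± 0.79 in C57BL/6J (0.00334) and 4.14 ± 0.86 in BALB/cJ (3.12e-04).

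The 5' UTR of Nr1h3, which encodes the oxysterol receptor LXR-alpha that maintains Kupffer cells, had 447, 476, 446 and 529 counts in CB6F1/J control and 127, 88.6, 86.2, 103 and 38.5 after LPS. Control and LPS libraries lay far apart, with a log2 ratio of -2.41 ± 0.22 (edgeR adjusted p = 1.20e-09). In the inbred strains the ratios were -1.36 ± 0.34 in C57BL/6J (0.00273) and -1.42 ± 0.39 in BALB/cJ (0.00461). The former was -0.80 without C57BL/6J LPS replicate 3 (0.0275) and the latter -1.03 without BALB/cJ LPS replicate 2 (0.143), so that neither call stood without that library. The 5' UTR of Clec1b, a lectin receptor of Kupffer cells, fell by 3.49 ± 0.24 on the log2 scale in CB6F1/J (7.64e-12). Among the inbred peaks, a promoter peak shares part of the counting window of this Clec1b peak.

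Of the LXR and lipid list, 7 of 26 fell and 1 rose in C57BL/6J (median -0.70), 8 of 26 fell and 1 rose in BALB/cJ, and 4 of 16 fell and 2 rose in CB6F1/J (median -0.57). Falls were 26.9, 30.8 and 25% of the list, beside 16, 18.2 and 14.0% of all genic peaks, and the rises in CB6F1/J, 12.5%, were near the 14.0% of all. Exon 1 of Srebf1, the master factor of fatty acid synthesis, had 63.2, 75.4, 20.8 and 63.8 counts in C57BL/6J control and 15.4, 24.6 and 19.9 after LPS, and 71.2, 85.8, 59.1 and 54.2 in BALB/cJ control and 12.2 and 9.67 after LPS. Only C57BL/6J control replicate 3 overlapped with LPS libraries, and the ratios were -1.45 ± 0.34 (edgeR adjusted p = 0.00179) and -2.60 ± 0.43 (1.73e-05). The end of Rxra, the partner of LXR, had ratios of -1.47 ± 0.27 in C57BL/6J (1.37e-04), -1.85 ± 0.31 in BALB/cJ (2.42e-05) and -1.55 ± 0.21 in CB6F1/J (1.08e-06). In contrast the end of Scd1, a fatty acid desaturase and LXR target, rose by 1.41 ± 0.30 in C57BL/6J (6.99e-04) and 1.18 ± 0.17 in CB6F1/J (4.68e-06). In BALB/cJ it rose by 1.31 ± 0.32 (0.00172), but the ratio was 0.98 (0.0977) without BALB/cJ LPS replicate 2.

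In CB6F1/J the falls of Jun, Ier5, Srebf1 and Rxra were counted on perfectly mapped tags, and with all tags on mm10 the log2 ratios were -0.88, -0.20, -0.25 and -0.33, none of them called. Those of Nr1h3 and Clec1b were still called. The falls given for gene lists in CB6F1/J were likewise counted on perfectly mapped tags.

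Markers of other cells were few among the genic peaks. Of the MHC list, 5 of 17 fell in C57BL/6J (median log2 ratio -1.20) and 2 of 13 in CB6F1/J (-0.94), which is 29.4 and 15.4% beside 16 and 14.0% of all genic peaks, so the latter share is near the background. In BALB/cJ 0 of 15 were called by edgeR or DESeq2, with 1 higher and 2 lower at an unadjusted p under 0.05 by edgeR, and the difference between the strains' lists was not tested. Beside these lists, promoters of 2 of 5 monocyte markers were above 0, with a summed level of 1.83 to 6.06 CPM in control and 5.46 to 10.1 in LPS libraries, and the part of such cells in the changes after LPS was not tested. In BALB/cJ the tested peak of the neutrophil gene Mmp9 rose, and the peaks of the lymphocyte genes Cd3d and Cd79b fell. Neither of these lists had a call in C57BL/6J or CB6F1/J, where both lymphocyte peaks were lower at an unadjusted p under 0.05 by edgeR. The 4 endothelial peaks and the hepatocyte peak tested in BALB/cJ were not called, and 1 of the former was lower at that unadjusted p. Stellate cell markers had no genic peak. The 1 of 5 of these markers with a promoter peak had 1.76 to 6.23 CPM there in control and 0.874 to 1.75 in LPS libraries, and the 1 of 6 lymphocyte markers with one had 0.291 to 2.52 and 0.414 to 1.40.

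Libraries of untreated strains were compared to ask where accessibility differed with genotype before any injection. Between C57BL/6J and BALB/cJ controls, 89 of 3400 tested peaks were higher in C57BL/6J (2.62%) against 3.14% of all tested peaks, and 123 were lower (3.62%) against 4.16%. A/J was higher than BALB/cJ at 50 of 3402 (1.47% against 1.58%) and lower at 59 (1.73% against 3%). A/J was higher than C57BL/6J at 105 of 3453 (3.04% against 3.29%) and lower at 92 (2.66% against 3.87%). These 3 comparisons share control libraries. Among the peaks below, those named for the largest ratios were again taken only where the compared groups did not overlap.

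**Figure D4:**
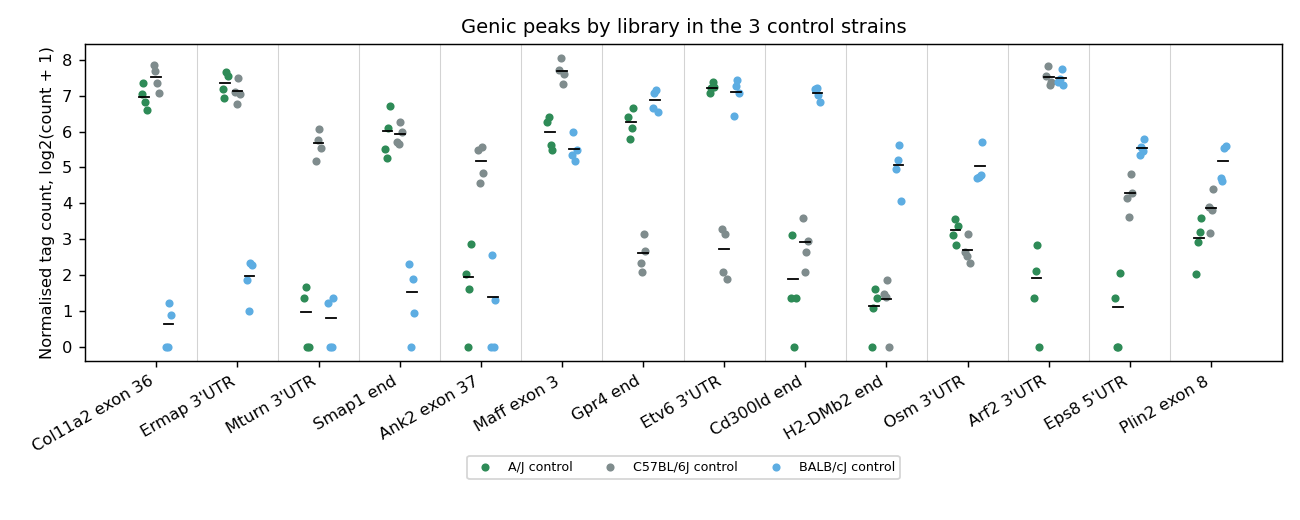
Normalised counts (log2 of the count plus 1) of named genic peaks in each control library of the inbred strains, with black bars at the log2 of the group mean plus 1. Col11a2, Ermap and Smap1 are low in BALB/cJ only, Gpr4 and Etv6 in C57BL/6J only, and Arf2 and Eps8 in A/J.

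Exon 36 of Col11a2, a fibrillar collagen gene of cartilage, held a peak (chr17:34057334-34057534). It had 230, 204, 163 and 133 counts in C57BL/6J control and 131, 162, 112 and 95.5 in A/J, but 0, 0, 1.34 and 0.829 in BALB/cJ control. The BALB/cJ libraries were near 0 throughout, and the log2 ratios to BALB/cJ were 7.82 ± 0.38 for C57BL/6J (edgeR adjusted p = 3.30e-17) and 7.28 ± 0.38 for A/J (6.51e-16). Under LPS the C57BL/6J libraries had 121, 174 and 148 counts and the BALB/cJ libraries 1 tag in all, a ratio of 347 with a 95% counting interval of 61.9 to 13716. In the 5 CB6F1/J LPS animals, tags over a base that differs between the parental strains gave 92, 113, 84.6, 77.7 and 114 counts for the C57BL/6J allele and 6.14, 7.45, 12.2, 2.63 and 3.08 for the BALB/cJ allele. The alleles did not overlap (log2 ratio 3.97 ± 0.31, edgeR with a term for each animal, adjusted p = 3.99e-04).

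The 3' UTR of Ermap, an erythroid membrane protein, had 136, 109, 181 and 132 counts in C57BL/6J control, 145, 121, 203 and 188 in A/J, and 2.64, 0.975, 4.03 and 3.87 in BALB/cJ control. BALB/cJ stood alone, with a log2 ratio of 5.35 ± 0.32 for C57BL/6J against it (edgeR adjusted p = 7.48e-15). The C57BL/6J allele of CB6F1/J had 69, 81.1, 44.1, 54.4 and 70.6 counts after LPS and the BALB/cJ allele 10.5, 11.7, 3.66, 3.51 and 7.19, a ratio of 3.14 ± 0.23 (3.04e-04). The end of Smap1, which acts on the ARF6 GTPase, had 51.6, 49.7, 76.7 and 62.5 counts in C57BL/6J control and 3.96, 0, 2.68 and 0.921 in BALB/cJ control (5.48 ± 0.51, adjusted p = 5.66e-10).

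Exon 37 of Ank2, ankyrin-B, was open in C57BL/6J alone. It had 44.1, 22.5, 46.8 and 27.9 counts in C57BL/6J control, 3.08, 0, 2.03 and 6.26 in A/J and 0, 4.88, 0 and 1.47 in BALB/cJ control, with no overlap of C57BL/6J with either (4.40 ± 0.51 against BALB/cJ, edgeR adjusted p = 4.61e-08). After LPS it had 87.1, 138 and 165 counts in C57BL/6J, a rise of 1.86 ± 0.37 (3.04e-04), and 1.74 and 2.64 in BALB/cJ. The C57BL/6J allele of CB6F1/J had 129, 143, 128, 178 and 112 counts after LPS and the BALB/cJ allele 21.9, 27.7, 39, 24.5 and 39.1 (2.19 ± 0.22, 7.75e-04).

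The end of Gpr4, a proton-sensing receptor, was nearly closed in C57BL/6J. It had 4.06, 3.21, 7.8 and 5.32 counts in C57BL/6J control, 100, 133, 142 and 92.3 in BALB/cJ control and 83.3, 54.7, 67.1 and 100 in A/J. The C57BL/6J libraries lay below all others, with log2 ratios of -4.52 ± 0.34 against BALB/cJ (edgeR adjusted p = 3.44e-12) and 3.91 ± 0.35 for A/J against C57BL/6J (3.06e-10), and under LPS the ratio to BALB/cJ was -4.76 ± 0.43 (1.02e-09). The 3' UTR of Etv6, an ETS-family repressor, was likewise low in C57BL/6J, with 8.7, 3.21, 7.8 and 2.66 counts in C57BL/6J. It had 133, 149, 165 and 150 in A/J and 85.7, 153, 173 and 134 in BALB/cJ (-4.43 ± 0.40 against BALB/cJ, 1.58e-10). Its alleles differed in the same direction in CB6F1/J LPS (-1.36 ± 0.14, 9.01e-04).

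The end of Cd300ld, a receptor of the CD300 family of myeloid cells, was open in BALB/cJ alone, with 144, 149, 129 and 112 counts against 11, 3.21, 5.2 and 6.65 in C57BL/6J and 1.54, 7.66, 0 and 1.56 in A/J. No library of the other strains came near the BALB/cJ libraries, and the log2 ratio of C57BL/6J to BALB/cJ was -4.17 ± 0.35 (edgeR adjusted p = 3.20e-11). In CB6F1/J LPS the alleles differed by -3.05 ± 0.26 (4.75e-04).

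The peak in the 3' UTR of Arf2, a small GTPase of the Golgi, was near 0 in A/J alone. It had 1.54, 3.28, 6.1 and 0 counts in A/J, 188, 229, 157 and 165 in C57BL/6J, and BALB/cJ was as high (167, 177, 213 and 156), with a log2 ratio of -6.05 ± 0.36 for A/J against BALB/cJ (edgeR adjusted p = 1.35e-14). The 5' UTR of Eps8, a regulator of actin, held 3 tags in all in A/J against 39.6, 46.8, 43 and 54.4 counts in BALB/cJ, a ratio of summed tags of BALB/cJ to A/J of 47.0 with a 95% counting interval of 16 to 228 (39.0 without BALB/cJ control replicate 4). C57BL/6J lay between, with 16.8, 11.2, 27.3 and 18.6 counts.

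Macrophage genes were among the smaller strain differences. The 3' UTR of Osm, the cytokine oncostatin M, had 5.22, 4.81, 7.8 and 3.99 counts in C57BL/6J control, 7.71, 10.9, 6.1 and 9.39 in A/J and 25.1, 25.4, 26.8 and 50.9 in BALB/cJ control. BALB/cJ was above both without overlap (-2.60 ± 0.40 for C57BL/6J, edgeR adjusted p = 1.16e-05), as it was under LPS (-2.47 ± 0.45, 2.78e-04). Exon 3 of Maff, a small MAF factor, had 208, 263, 161 and 194 counts in C57BL/6J control, 75.5, 84.2, 48.8 and 43.8 in A/J and 39.6, 62.4, 34.9 and 43.5 in BALB/cJ (2.18 ± 0.25 against BALB/cJ, 4.11e-08). A peak annotated to the 3' UTR of Tlr4, the LPS receptor, was lower in C57BL/6J than in BALB/cJ control (-1.31 ± 0.26, 4.16e-04).

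**Figure D5:**
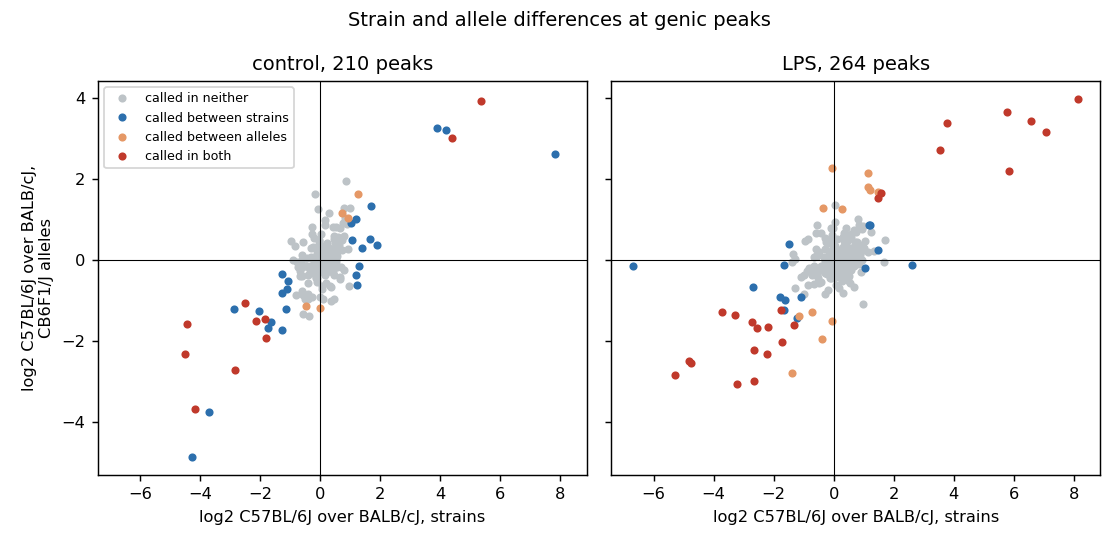
Log2 ratio of C57BL/6J to BALB/cJ in the inbred strains (x axis) against that of the alleles of CB6F1/J (y axis), in control and LPS libraries, with 1 point per genic peak tested in both. Peaks called in both comparisons lie in the quadrants of equal sign.

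Tags that span a variant were sparse, and 213 of the genic peaks could be tested in CB6F1/J control and 293 after LPS. In control, 5 were higher on the C57BL/6J allele (2.35%) against 2.97% of all tested peaks, and 10 were lower (4.69%) against 3.1%. After LPS, 18 were higher (6.14%) against 9.96% and 30 were lower (10.2%) against 7.97%. The counts in control rest on few reads, and without CB6F1/J control replicate 1 there were 0 calls, and 10, 5 and 6 without replicates 2, 3 and 4. Strain and allele comparisons share no library. Of 210 peaks tested in both in control, 15 were higher in C57BL/6J, and the C57BL/6J allele exceeded the BALB/cJ allele at 12 of the 15. The 20 that were lower in C57BL/6J were lower on its allele at 20. Under LPS the signs were equal at 12 of 14 peaks higher in C57BL/6J and at 23 of 24 that were lower.

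Under LPS, C57BL/6J was higher than BALB/cJ at 72 of 3200 tested peaks (2.25%) against 2.45% of all tested peaks, and lower at 78 (2.44%) against 2.83%. Without BALB/cJ LPS replicate 2 the counts were 41 and 26, and without its replicate 1 they were 84 and 34. The end of Rsad2, closed in all controls, was lower in C57BL/6J than in BALB/cJ after LPS (-2.23 ± 0.48, edgeR adjusted p = 0.00229, but -2.09 and 0.0667 without BALB/cJ LPS replicate 2). In the CB6F1/J animals after LPS the C57BL/6J allele had 34.1, 27.7, 67.4, 63.9 and 34.8 counts and the BALB/cJ allele 274, 231, 206, 206 and 186. The BALB/cJ allele was the higher in 5 of 5 animals (-2.32 ± 0.25, 0.00102), while the strains' log2 responses to LPS at this peak differed by -1.04 ± 1.12 (0.882).

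A difference between the strains in the response to LPS itself was called at few of the peaks. The contrast rests on few BALB/cJ LPS libraries, and its SE was 0.44 to 1.06 at the called peaks. Library date also divides the strains under LPS. A small number of calls thus does not show that the responses were alike at the other peaks. The difference of the log2 ratios, C57BL/6J minus BALB/cJ, was higher at 10 of 6178 tested peaks (0.16%) against 0.108% of all tested peaks, and lower at 4 (0.065%) against 0.0368%. Of the 10, 9 lay between 3 and 3.3 Mb of chromosome 11, in Sfi1 and the pseudogene Pisd-ps1, and the other was at Mir101c on chromosome 9 in sequence that is 86.6% repeated. The 14 genic peaks of the chromosome 11 interval together had 36.4 to 62.5 counts in C57BL/6J control, 425 to 996 in C57BL/6J LPS, 423 to 607 in BALB/cJ control, 254 to 314 in BALB/cJ LPS and 407 to 509 in A/J. C57BL/6J control was thus the only low group. A shift between genomes is named in the column headers of C57BL/6J LPS but not in those of C57BL/6J control, and the part of this in the result was not tested.

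Among the 4 peaks with a lower difference, 3 rose in BALB/cJ from a low control level. A second peak of Ermap, in an exon (chromosome 4 from 119178353), had 2.64, 7.80, 12.1 and 6.27 counts in BALB/cJ control and 37.5 and 40.5 after LPS, and 158, 97.9, 144 and 97.1 in C57BL/6J control and 117, 119 and 111 after LPS. BALB/cJ moved and C57BL/6J stayed in its range (difference -2.62 ± 0.46, edgeR adjusted p = 0.0024). The end of Tulp2, nearest to the stress gene Ppp1r15a, went from 2.64, 0.975, 4.03 and 1.66 to 23.5 and 26.4 in BALB/cJ, and had 12.8, 19.3, 10.4 and 13.3 and then 8.43, 14.4 and 9.56 in C57BL/6J (-3.92 ± 0.75, 0.0091). At the 3' UTR of Mtus1 the counts went from 0, 0.975, 1.34 and 0.921 to 47.0 and 47.5 in BALB/cJ (-5.63 ± 1.05, 0.00615). The last of the 4 lay near Ifi203, in sequence that is 62.2% repeated (-2.45 ± 0.44).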

How the data were processed

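ATAC-seq libraries of sorted Kupffer cells, 17 of inbred strains and 9 of CB6F1/J, were analysed from 2 of the 46 deposited files, a count table for each. Per the study's methods, the authors cut reads to 30 bp and mapped them with Bowtie2 on strain genomes derived from mm10. They shifted positions to mm10 with MMARGE, merged reproducible (IDR) HOMER peaks and counted raw tags in 1000-bp windows. The tool versions are not given in the sources used here. In the inbred table the authors deposited whole counts for LPS libraries. Control libraries hold expected counts, which move in steps of 0.5, and the deposited hybrid table holds expected counts throughout. Values were rounded up to whole tags.

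Groups came from the labels. Replicates were taken as the labels number them, and p-values measure the spread between these libraries. Genic peaks were chosen by the deposited annotation. All tests ran on whole tables with edgeR 4.0.16 (TMM, quasi-likelihood) in R 4.3.3, with 1 model of the 17 inbred libraries, and Benjamini-Hochberg adjustment over every tested peak. Peaks were tested above a mean normalised count of 16 (strains, alleles) or 4 (LPS), and called at an adjusted p under 0.05 and a log2 ratio over 1 in size, as in the study, whose DESeq2 test was run (1.42.0) as an alternative. Both alleles of an animal, told apart by tags over a variant, were compared with a block per animal. For the hybrid's LPS response the perfectly mapped tags on mm10 were used, because the columns of all tags held fewer tags than those at 37.9 to 69.6% of peaks in its control libraries. A hybrid peak was matched to an inbred peak if each was covered to at least 50%. In the report, levels against a group of 0 to 3 tags are given as ratios of summed tags with counting intervals, which cover counting error only. Tag shares were tested by exact permutation. The tests were tried on simulated counts.

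The choice of genic peaks, the 13 gene lists and the rule for named peaks were made with earlier results of these data known. The rule takes, in each comparison and direction, the 6 called peaks of largest log2 ratio whose groups do not overlap, 1 per nearest gene, without predicted, olfactory and ribosomal protein genes and repeats, up to 3 called peaks per gene list by p, and the 3 highest per class. The text uses a part, and the result for a single gene is not reported here. The 4 peaks of lower strain difference in the response and the chromosome 11 interval were chosen after their values were seen. Sequences and gene parts came from the RefSeq annotation and sequence of mm10. Alternatives covered the tool, scaling, minimum counts, thinning to the smallest library, the replicate block, shared windows, repeats and each library in turn, and, chosen after seeing the data, the kind of hybrid tags, subsets for the tag shares and ratios of summed tags without the deepest library.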

Additional observations from a re-analysis of the deposited data

Results flagged for a closer look

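In 20 of 257 groups of 4 or 5 libraries examined at the named peaks, 1 library lay apart from the others by Dixon's criterion. For normally distributed values chance meets it in about 1 group in 20, a rate that does not hold for groups of few tags. Of 18 groups examined for tag shares, 0 had such a library. In A/J control the normalised counts set apart were 6.56 at Trim30a, 376 at Junb and 486 at Fos in replicate 2, and 1.56 at Rel and 1.56 at Marco in replicate 4. In BALB/cJ control they were 0.975 at the Il2ra 3' UTR nearest to Il15ra and 23.4 at B2m in replicate 2, and 50.9 at Osm, 262 at Med29 and 371 at Rn45s in replicate 4. At Rel and Marco in A/J and at the Il2ra 3' UTR in BALB/cJ, the value set apart was 1 tag beside 0 in every other library. Such a group meets the criterion by construction. In C57BL/6J control they were 85.8 at Clec1b in replicate 3, and 481 at the Lars2 3' UTR nearest to Limd1 and 979 at Rn45s in replicate 4. In CB6F1/J control they were 268 at Col11a2 in replicate 2, and 1082 at Nfkbia, 94.9 at Gpr4 nearest to Opa3, 1028 at Arf2 and 1564 at Mcm9 in replicate 3. In CB6F1/J LPS they were 438 at Ank2 in replicate 4 and 3343 at Rn45s in replicate 3.

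The LPS response differed between C57BL/6J and BALB/cJ at 14 genic peaks by the interaction contrast of edgeR. The log2 differences of C57BL/6J minus BALB/cJ were 9.01, 7.75, 6.74, 9.10, 7.28, 4.67, 8.08, 5.96 and 5.29 at the 9 peaks of the chromosome 11 interval and 5.48 at Mir101c. They were -5.63 at Mtus1, -2.45 near Ifi203, -2.62 in the exon of Ermap and -3.92 at the end of Tulp2. At 5 of the 9 peaks of the interval the C57BL/6J control libraries held 1 to 3 tags in all, so the fitted values there depend on the prior count and measure no fold. The groups' control levels at these peaks differed before LPS as described above, and the part of mapping in the difference was not tested.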

How the results depend on the processing

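Counts of called genic peaks moved with the minimum count, the depth and the windows kept. With no minimum count, a minimum of 32, thinning to the smallest library and own windows alone, C57BL/6J against BALB/cJ control went from 212 calls to 418, 83, 87 and 106, A/J against BALB/cJ from 109 to 189, 58, 59 and 62, and A/J against C57BL/6J from 197 to 338, 84, 87 and 102. C57BL/6J against BALB/cJ under LPS went from 150 to 269, 66, 66 and 81. With a minimum of 32 and with own windows, LPS calls went from 1339 to 496 and 615 in C57BL/6J (higher 81 and 217, lower 415 and 398) and from 1642 to 641 and 793 in BALB/cJ (higher 128 and 305, lower 513 and 488). The 14 strain differences in the response went to 5 and 3, and to 3 without repeated sequence. In CB6F1/J the 1269 LPS calls went to 211 on variant-spanning tags (87 higher, 124 lower), and the falls to 357 with all tags on mm10. Allele calls went from 15 in control to 27 with DESeq2, 0 with no minimum and 9 with 32, and from 48 after LPS to 19 with 32. Stricter minimums and own windows test fewer peaks by construction, and for the other settings the cause was not tested.

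Leaving out each library in turn gave 148 to 261, 79 to 145 and 160 to 192 calls for the control strain pairs, 67 to 158 for strains under LPS, 812 to 1602 for LPS in C57BL/6J (higher 215 to 482, lower 597 to 1120), 986 to 1647 in BALB/cJ (349 to 551, 637 to 1096) and 1172 to 1317 in CB6F1/J (565 to 639, 590 to 752), 12 to 18 for the interaction, and 0 to 10 and 40 to 52 for alleles in control and after LPS. Libraries were not taken as paired by replicate number. The paper states that littermates were randomized to LPS or no injection, and it shows its inbred ATAC-seq data by batch. The labels name no shared litter or day, and the main model had no such term. Not every correlation of same-numbered deviations passed 0.1 (-0.097 to 0.375, with all 12 between control libraries of the inbred strains above 0). In 14 of 24 such control comparisons a library correlated best with its own number, and whether the numbers mark the paper's batches was not tested. With a replicate block strains under LPS gave 232 calls, against 150 in the main model. Without the block of animals, alleles in control gave 27. Of 151 results for named peaks, 2 reversed, Arf2 and the Lars2 3' UTR near Limd1, at 0.62 and 0.20 in CB6F1/J with all tags on mm10. Over the other settings 806 of 836 values kept their call and 28 lost it, and 974 of 1028 kept it when a library was left out. The LPS group of BALB/cJ has 2 libraries, and the allele comparisons rest on 0.269 to 0.581 M variant-spanning tags per allele and animal.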
